A study of Mus musculus with 14 samples.

Results

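The lysyl oxidases and the matricellular proteins finish and tune the collagen matrix of a tissue. Their messenger RNAs were measured in whole epididymal fat pads of male mice, a depot of the visceral kind. The set was given as 10 genes, 5 lysyl oxidases (Lox, Loxl1, Loxl2, Loxl3 and Loxl4), fibronectin (Fn1) and 4 matricellular genes (Postn, Sparc, Thbs1 and Tnc). A gene was taken through the probe set that carries its symbol and no other, and through the set with the highest mean over the 14 arrays where there were several. That gave 9 of the 10 genes among 19937 genes measured. Loxl2 was not analysed here because its probe set carries 2 symbols.

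The EKO mice carry the genotype that the labels name EKO and tie to apolipoprotein E, on the C57BL6/J strain, and the wild type (WT) mice are C57BL6/J. All were males, put on their diet at 8 weeks of age and kept on it for 24 weeks. There were 4 arrays of EKO mice on the Western diet (42% milk fat), 4 of EKO mice on normal diet, 3 of WT mice on the Western diet and 3 of WT mice on normal diet, and the labels call the replicates biological. The comparisons ask how the genotypes differed on each diet, how the Western diet changed the pad in each genotype, and whether that change depended on genotype.

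Lysyl oxidases are secreted copper enzymes that oxidise lysine side chains of collagen and elastin, the step from which covalent crosslinks form. Matricellular proteins sit in the same matrix without being its main building material; they bind collagen, growth factors and integrins and change how cells attach to the matrix. In fat this matrix surrounds each adipocyte, and it is laid down largely by stromal cells as the depot enlarges.

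Promoter sequence was at hand for 4 of the 9 measured genes, Loxl4, Postn, Sparc and Tnc, and these are shown because all 4 changed in at least 1 of the comparisons below. Each line gives the 250 bases before an annotated transcription start in RefSeq's GRCm38.p6 assembly, 5′ to 3′ on the gene's own strand. Capitals mark the only matches to 6 searched motifs, read on both strands: ACGTG (the HIF core), TGANTCA (AP-1), GGAATG (TEAD), CAGACA (SMAD), TATANA (TATA) and CCGCCC (KLF and SP1). The Loxl4 window is chr19:42612807-42613056, minus strand. The Postn windows are chr3:54359017-54359266 and chr3:54360857-54361106, plus strand, for a pair of starts 1840 bases apart. Sparc is at chr11:55420081-55420330 and Tnc at chr4:64047016-64047265, both on the minus strand.
Loxl4: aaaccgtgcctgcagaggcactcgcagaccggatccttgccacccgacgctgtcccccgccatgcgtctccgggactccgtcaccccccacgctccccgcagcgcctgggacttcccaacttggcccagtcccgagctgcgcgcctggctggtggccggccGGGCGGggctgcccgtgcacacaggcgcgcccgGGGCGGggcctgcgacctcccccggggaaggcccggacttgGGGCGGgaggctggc
Postn, start 1: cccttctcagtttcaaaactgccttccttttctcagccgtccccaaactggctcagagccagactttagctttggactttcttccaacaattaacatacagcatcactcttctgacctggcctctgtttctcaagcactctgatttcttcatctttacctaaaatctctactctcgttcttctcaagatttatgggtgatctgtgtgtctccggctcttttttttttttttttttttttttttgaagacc
Postn, start 2: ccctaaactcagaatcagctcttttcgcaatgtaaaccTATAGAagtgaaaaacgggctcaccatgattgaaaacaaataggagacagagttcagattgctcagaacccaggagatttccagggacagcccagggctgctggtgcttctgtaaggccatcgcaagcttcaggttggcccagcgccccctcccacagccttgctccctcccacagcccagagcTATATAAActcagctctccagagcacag
Sparc: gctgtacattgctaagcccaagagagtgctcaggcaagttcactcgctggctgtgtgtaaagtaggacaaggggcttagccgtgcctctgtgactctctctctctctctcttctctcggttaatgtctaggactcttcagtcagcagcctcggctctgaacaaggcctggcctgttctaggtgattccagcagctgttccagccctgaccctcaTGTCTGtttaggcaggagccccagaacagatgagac
Tnc, start 1: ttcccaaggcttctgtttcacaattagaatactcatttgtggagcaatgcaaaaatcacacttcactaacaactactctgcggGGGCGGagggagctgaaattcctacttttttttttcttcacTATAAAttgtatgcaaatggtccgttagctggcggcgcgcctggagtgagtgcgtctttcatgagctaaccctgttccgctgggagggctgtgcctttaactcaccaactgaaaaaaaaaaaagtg

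The Loxl4 window was the richest in G and C of those shown, at 76.0%, and held CCGCCC 3 times, each on the other strand, at -89 to -84, -56 to -51 and -15 to -10 from the start. The Postn windows differed from each other. The upstream Postn start had 40.4% G and C and no match to any of the 6 motifs, while the downstream start had 52.0% and 3 TATANA matches, at -212 to -207 and at the overlapping positions -28 to -23 and -26 to -21. Sparc (54.0% G and C) held CAGACA at -36 to -31 on the other strand. Tnc (44.8%) held CCGCCC on the other strand at -167 to -162 and TATANA at -126 to -121. A second annotated Tnc start lies 79 bases downstream, so its window (51.2% G and C) overlaps the one shown; it adds CAGACA on the other strand at -71 to -66 and TATANA at -29 to -24. Over all 32851 promoters of the same length, the median G and C content was 52.4%, and 32.7% held CCGCCC, 22.6% TATANA, 17.1% CAGACA, 16.6% ACGTG, 12.6% GGAATG and 6.75% TGANTCA. The letters are a description of these windows and show no binding.

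Values are log2 levels as deposited, a level is followed by ± SD over arrays and a difference by ± its standard error, and every adjusted p is from limma over 19937 genes, a gene having passed at an adjusted p under 0.05. Apoe (the lipoprotein ligand behind the genotype's name) lay at 10.04 ± 0.19 and 9.74 ± 0.22 in EKO on Western and normal diet (n = 4 each), against 13.39 ± 0.26 and 13.41 ± 0.24 in WT (n = 3 each), and no EKO array overlapped a WT array. Adipocyte genes averaged between 13.1 and 13.5 on every array, and 3 of 5 measured epididymis genes (Lcn8, Spint4 and Rnase10) were at array background in all 4 groups. That background, the mean of 1204 olfactory and vomeronasal receptor rows, set 5 arrays (6.75 to 6.84) above the other 9 (6.29 to 6.56). The 5 are replicate 1 of each group except EKO on normal diet, where it is replicate 2, and also replicate 3 of EKO on Western diet. Each group holds arrays of both kinds, and every group mean of the 9 genes lay above 6.84. The pad was measured whole, so fewer cells of a type and less RNA per cell cannot be told apart.

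Lox, which encodes the founding enzyme of the family and acts on fibrillar collagen and elastin, had the widest separation of the groups. Its level (probe set 10458894) was 9.23, 9.47, 9.62 and 9.68 in EKO on Western diet and 9.73, 9.30, 9.71 and 10.58 in EKO on normal diet. In WT it was 11.03, 11.32 and 11.46 on Western diet and 10.23, 9.96 and 10.56 on normal diet. The 3 Western-fed WT arrays were the highest of the 14, and all 4 Western-fed EKO arrays lay below every WT array of either diet. Group means from low to high ran 9.50 ± 0.20 (EKO Western), 9.83 ± 0.54 (EKO normal), 10.25 ± 0.30 (WT normal) and 11.27 ± 0.22 (WT Western). Of neighbours in that order, only the last pair did not overlap.

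Loxl1, whose enzyme is needed in mice for the renewal of elastic fibres, had group means ordered by genotype, both EKO means lying below both WT means. The Loxl1 level (probe set 10594066) was 10.05, 9.88, 10.10 and 10.20 in EKO on Western diet and 10.02, 10.21, 10.25 and 10.50 in EKO on normal diet. WT arrays had 10.40, 10.43 and 10.53 on Western diet and 10.44, 10.49 and 10.54 on normal diet. Of the 8 EKO arrays, 7 lay below all 6 WT arrays, and replicate 4 on normal diet lay within the WT range. Neighbouring groups overlapped in the order of means, which ran 10.06 ± 0.13 (EKO Western), 10.24 ± 0.20 (EKO normal), 10.46 ± 0.07 (WT Western) and 10.49 ± 0.05 (WT normal).

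Loxl4, a related oxidase with scavenger receptor repeats ahead of its catalytic part, kept the same order of genotypes. Its level (probe set 10467768) was 7.89, 7.83, 7.80 and 7.93 in EKO on Western diet, against 8.11, 8.45 and 8.47 in WT on Western diet. On normal diet it was 7.87, 7.99, 7.91 and 8.19 in EKO, against 8.20, 8.23 and 8.21 in WT. On either diet the EKO arrays lay below the WT arrays, with the closest pair at 8.19 and 8.20 on normal diet. The 3 WT arrays on normal diet differed by an SD of 0.015, and among WT arrays on Western diet replicate 1, an array of higher background, was the low value. A dimmer probe set of the gene (10467766) stayed near background, between 6.47 ± 0.04 (EKO Western) and 6.78 ± 0.13 (WT Western), with the same direction in each comparison between 2 groups.

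Loxl3, which mice need for palate and spine development, was level across the study. Its 14 values (probe set 10539263) ran from 8.46 to 8.82, group means were 8.67 ± 0.04 and 8.58 ± 0.13 in EKO on Western and normal diet and 8.65 ± 0.11 and 8.73 ± 0.085 in WT, and every pair of groups overlapped.

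Fn1 encodes fibronectin, the fibrillar glycoprotein on which cells assemble collagen. Fibronectin RNA (probe set 10355403) stood at 12.17, 12.13, 12.39 and 12.47 in EKO on Western diet, against 12.72, 12.82 and 12.91 in WT on Western diet. On normal diet it was 12.39, 11.49, 12.47 and 12.84 in EKO, against 12.59, 12.36 and 12.65 in WT. On Western diet the genotypes did not overlap, and on normal diet the EKO arrays spanned the whole WT range and included the lowest of the 14 values. The SD was 0.57 in EKO on normal diet and 0.17, 0.10 and 0.15 in EKO Western, WT Western and WT normal.

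Postn encodes periostin, which binds collagen and helps activate the lysyl oxidase precursor. Its level (probe set 10492021) was 11.37, 10.94, 10.95 and 11.16 in EKO on Western diet and 10.49, 11.11, 10.85 and 11.37 in EKO on normal diet. In WT it was 11.58, 11.73 and 11.42 on Western diet and 10.99, 10.53 and 10.75 on normal diet. The 3 Western-fed WT arrays were the highest of the 14, and the other 3 groups overlapped one another. Group means from low to high were 10.76 ± 0.23 (WT normal), 10.95 ± 0.37 (EKO normal), 11.10 ± 0.20 (EKO Western) and 11.58 ± 0.16 (WT Western).

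Sparc encodes a collagen-binding glycoprotein, also called osteonectin, whose loss enlarges fat depots in mice. Sparc RNA (probe set 10386058) stood at 13.46, 13.47, 13.72 and 13.70 in EKO on Western diet, against 13.998, 13.976 and 14.034 in WT on Western diet. On normal diet it was 13.56, 13.56, 13.65 and 13.984 in EKO, against 13.82, 13.68 and 13.75 in WT. The Western-fed WT arrays lay above all arrays of the other groups except EKO on normal diet replicate 4, which fell among them. Their SD was 0.03, against 0.07 to 0.20 in the other 3 groups.

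Tnc encodes tenascin C, a large glycoprotein that appears at sites of injury and remodelling. Its level (probe set 10513739) was 7.97, 7.62, 8.02 and 8.09 in EKO on Western diet and 7.99, 8.06, 7.88 and 8.80 in EKO on normal diet. WT arrays had 8.60, 8.76 and 8.66 on Western diet and 8.11, 8.03 and 7.98 on normal diet. The highest 4 of the 14 values, at 8.60 to 8.80, were those of the 3 Western-fed WT arrays and of EKO on normal diet replicate 4, and the other arrays lay at or below 8.11. The order of means from low to high was 7.93 ± 0.21 (EKO Western), 8.04 ± 0.07 (WT normal), 8.18 ± 0.42 (EKO normal) and 8.67 ± 0.08 (WT Western), and each neighbour overlapped the next.

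Thbs1 encodes thrombospondin 1, which activates latent TGF-beta, binds CD36 and CD47 and is also stored in platelets, and its pattern was unlike the others. Thbs1 values (probe set 10474700) were 13.05, 11.54, 11.79 and 12.39 in EKO on Western diet and 10.70, 11.23, 10.80 and 12.91 in EKO on normal diet. In WT it was 11.96, 11.43 and 11.47 on Western diet and 12.22, 11.58 and 11.94 on normal diet. Replicates 1 to 3 of EKO on normal diet held the lowest values of the 14 and replicate 4 the next to highest, and every pair of groups overlapped. The SD was 0.67 and 1.03 in EKO on Western and normal diet and 0.29 and 0.32 in WT.

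**Figure D1:**
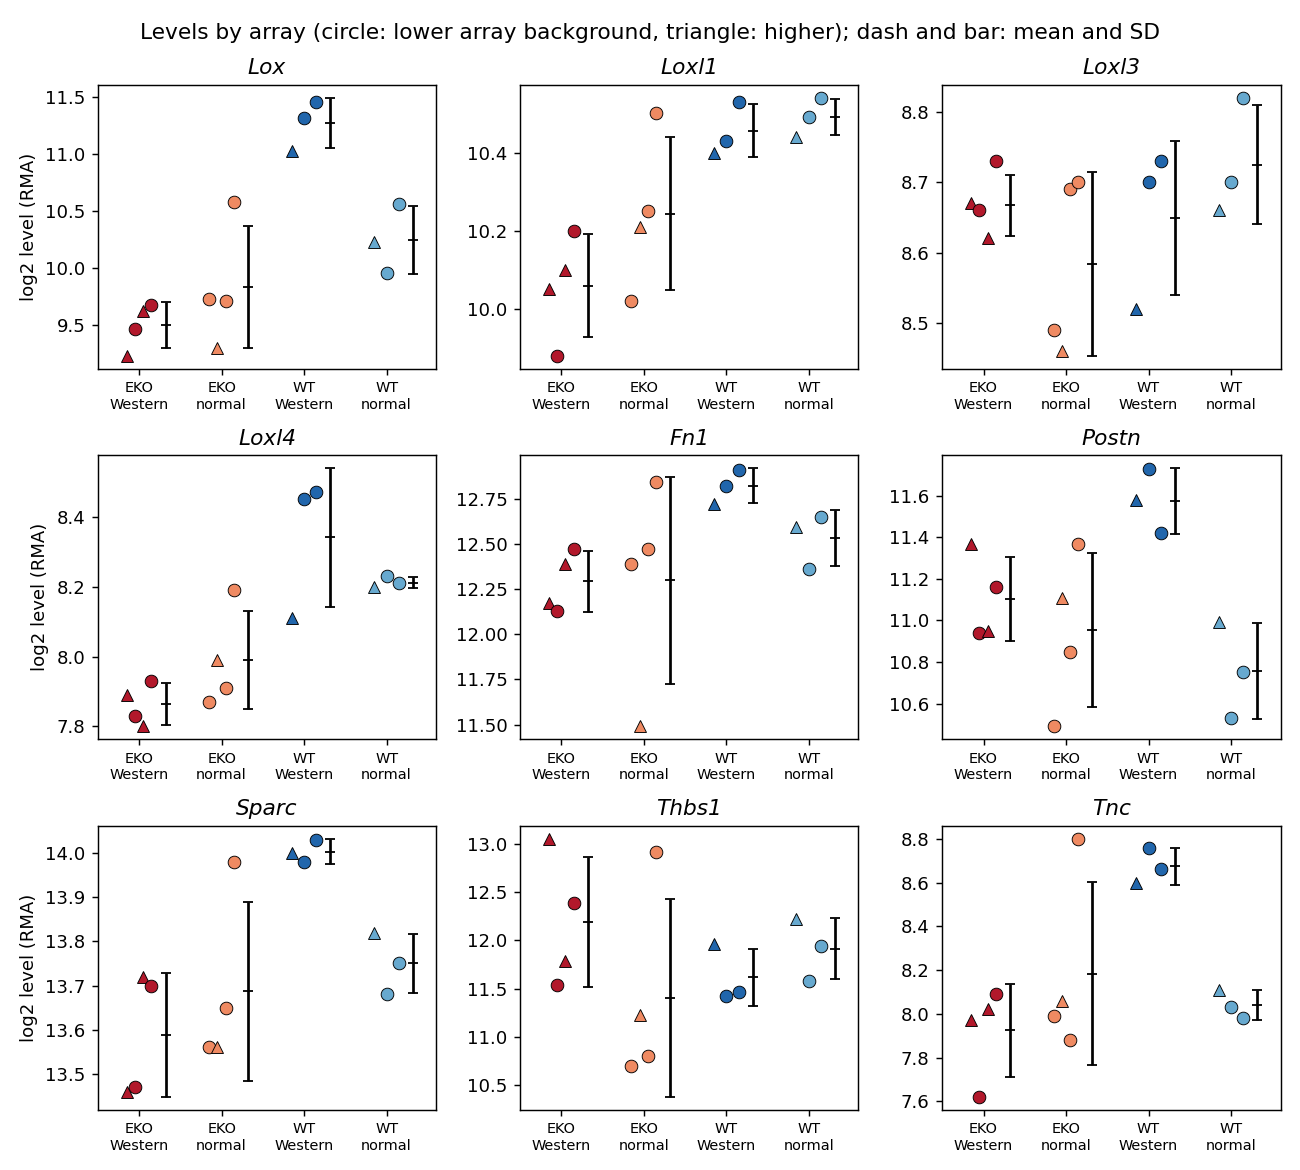
Log2 level of the 9 genes on each array (vertical axes, a scale per gene), with the groups EKO Western, EKO normal, WT Western and WT normal from left to right, circles for the 9 arrays of lower background and triangles for the 5 of higher, and a dash and bar for the group mean and SD. For Lox the Western-fed WT arrays lie between 11.03 and 11.46 and the Western-fed EKO arrays between 9.23 and 9.68.

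EKO on normal diet replicate 4 stands out among the arrays. It had the highest value of its group for 9 of the 9 genes, with a mean deviation over the 9 of 0.38 from the mean of 14 arrays, against -0.35, -0.33 and -0.24 for replicates 1 to 3. The same array had the highest mean of its group over macrophage genes (10.30, against 9.30 to 9.86), over stromal progenitor and fibroblast genes (10.81, against 10.19 to 10.68) and over platelet genes (9.11, against 8.70 to 8.95). It was also highest over smooth muscle (10.06, against 9.61 to 9.93), endothelial (10.905, against 10.56 to 10.82) and dividing cell genes (7.321, against 7.265 to 7.312). The same held for each list of related matrix genes below. Replicate 3 was higher over mesothelial genes (9.771, against 9.725), and replicate 2 over adipocyte genes (13.482, against 13.425). Over skeletal muscle genes replicate 4 was the lowest of its group (7.764, against 7.819 to 8.087). Over epididymis genes, most of them at array background, replicate 2 was higher (6.588, against 6.348). The part of these cells in the values of replicate 4 was not tested. The Western-fed WT arrays deviated by 0.28 to 0.36, the Western-fed EKO arrays by -0.32 to -0.01, and the normal-fed WT arrays by -0.09 to 0.09.

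**Figure D2:**
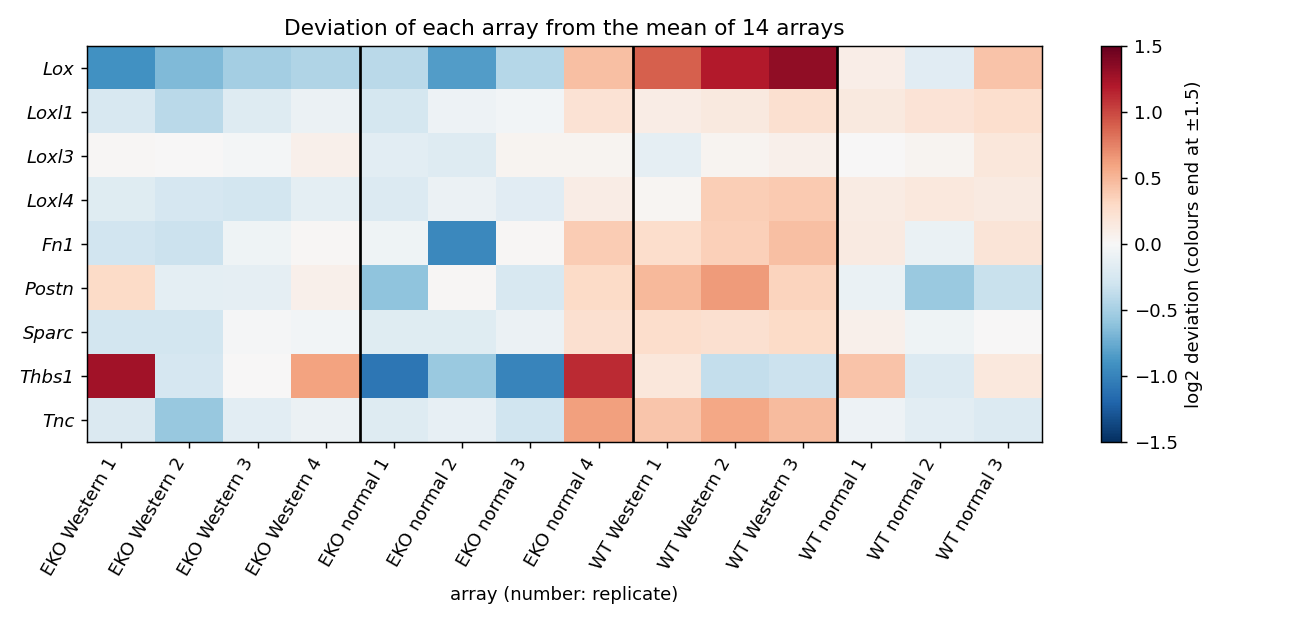
Deviation of each array (columns, grouped as EKO Western, EKO normal, WT Western and WT normal, numbered by replicate) from the mean of the 14 arrays for each gene (rows), as a colour on the log2 scale. EKO normal 4 departs from the other arrays of its group, with a mean deviation of 0.38 against -0.35 to -0.24.

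On the Western diet 3 lysyl oxidases (Lox, Loxl1 and Loxl4), Sparc and Tnc were lower in EKO than in WT pads, and the other 4 genes did not pass. Lox fell by 1.77 ± 0.23 on the log2 scale, 3.42-fold (95% interval -2.27 to -1.27, adjusted p = 0.000727). Tnc was 1.68-fold lower (-0.75 ± 0.18, adjusted p = 0.0238), Loxl4 1.39-fold lower (-0.48 ± 0.10, adjusted p = 0.0119), Sparc 1.33-fold lower (-0.41 ± 0.11, adjusted p = 0.0373) and Loxl1 1.32-fold lower (-0.40 ± 0.11, adjusted p = 0.0413). In all, 5 of 9 genes passed, all lower, where 4.05% of all genes passed as lower. The median of the 9 was -0.47, against 0.03 over all genes.

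Of those 4 genes, Fn1 differed by -0.53 ± 0.22 (95% interval -1.004 to -0.051, adjusted p = 0.206) and Postn by -0.47 ± 0.18 (-0.85 to -0.09, adjusted p = 0.155), and for both every EKO array lay below every WT array. Arrays of the genotypes did not overlap in 7 of 9 genes, all lower in EKO, against 8.71% of all genes; Loxl3 and Thbs1 were the exceptions. Loxl3 differed by 0.02 ± 0.09 (-0.17 to 0.21, adjusted p = 0.934), the narrowest interval of the 9. For Thbs1 the difference was 0.57 ± 0.45 (-0.39 to 1.53, adjusted p = 0.531), an interval that allows either direction.

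Single arrays bear on these calls unequally. Lox passed with each of the 14 arrays left out in turn. Leaving out WT Western replicate 2 or 3 ended the calls of the other 4: Loxl4 (adjusted p = 0.0756 and 0.0891), Tnc (0.104 and 0.105, and 0.065 without EKO Western replicate 2), Sparc and Loxl1. Sparc lost its call in 7 of the 14 fits (adjusted p = 0.0513 to 0.171), those without WT normal 3, EKO normal 3, EKO Western 1, 2 or 4, or WT Western 2 or 3. Loxl1 lost it in 10 (0.0501 to 0.209) and kept it only without WT Western 1 or EKO normal 1, 2 or 4. Fn1 passed without EKO normal replicate 2 (adjusted p = 0.0232). Within the arrays of lower background (2 EKO, 2 WT) the differences were -1.82 for Lox, -0.86 for Tnc, -0.57 for Loxl4, -0.44 for Loxl1 and -0.42 for Sparc, and within those of higher background (2 EKO, 1 WT) they were -1.60, -0.60, -0.27, -0.32 and -0.41; the fit on lower background arrays called 2 of the 9, Lox and Loxl4.

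On normal diet none of the 9 genes passed between EKO and WT (0 of 9 in limma, 2 at an unadjusted p under 0.05). Over all genes 1 passed, Apoe, which is 0.00502%. All 4 lysyl oxidases had differences below 0, from -0.42 ± 0.23 for Lox through -0.25 ± 0.11 for Loxl1 (unadjusted p = 0.0354) and -0.22 ± 0.10 for Loxl4 (0.0419) to -0.14 ± 0.09 for Loxl3, each with an adjusted p of 1. Loxl4 was the only gene of the 9 whose groups did not overlap, lower in EKO, where 0.868% of all genes were. Fn1, Sparc and Thbs1 were at -0.23 ± 0.22, -0.06 ± 0.11 and -0.50 ± 0.45, and Postn and Tnc at 0.20 ± 0.18 and 0.14 ± 0.18.

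In WT mice the Western diet raised Lox and Postn. Lox rose 2.03-fold (1.03 ± 0.25, 95% interval 0.49 to 1.56, adjusted p = 0.0280) and Postn 1.77-fold (0.82 ± 0.19, 0.41 to 1.23, adjusted p = 0.0216). That is 2 of 9 genes, where 3.19% of all genes passed as higher. Tnc was 1.55-fold higher with no overlap between the diets (0.63 ± 0.19, 0.23 to 1.04) but missed the threshold (adjusted p = 0.0710). It passed without EKO normal replicate 4 (adjusted p = 0.00561), an array of neither group that enters through the shared spread. Some of the alternative settings given at the end also called Tnc.

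Western-fed WT arrays lay above all normal-fed WT arrays in 5 of 9 genes (Lox, Postn, Tnc, Sparc and Fn1), against 8.77% of all genes. Sparc differed by 0.25 ± 0.12 (adjusted p = 0.279) and Fn1 by 0.29 ± 0.24 (0.683). The other 3 lysyl oxidases gave 0.13 ± 0.11 for Loxl4, -0.03 ± 0.11 for Loxl1 and -0.08 ± 0.09 for Loxl3, and Thbs1 was at -0.29 ± 0.48. Each call depended on single arrays: without WT normal 1 or 2 or WT Western 2 or 3, Lox had an adjusted p of 0.0612 to 0.138, and without WT normal 2 or 3 or WT Western 2 or 3, Postn had 0.0504 to 0.106. Within arrays of lower background the Lox difference was 1.14 (2 against 2 arrays), and between the single arrays of higher background it was 0.80. The Western-fed WT arrays also serve in the comparison of EKO with WT on that diet, so these results are not independent of each other.

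In EKO mice none of the 9 genes passed for diet, and 0 of 9 had an unadjusted p under 0.05 in limma. Over all genes 0.0% passed, with 883 at an unadjusted p under 0.05. Lox was at -0.33 ± 0.22 (95% interval -0.80 to 0.13) and Postn at 0.15 ± 0.17 (-0.20 to 0.50), against 1.03 and 0.82 in WT. Arrays of both diets overlapped for all 9 genes, and 2.56% of all genes had no overlap. Tnc (-0.26 ± 0.16), Loxl1 (-0.18 ± 0.10), Loxl4 (-0.13 ± 0.09) and Sparc (-0.10 ± 0.10) were below 0, Fn1 was at -0.01 ± 0.21 and Loxl3 at 0.08 ± 0.08.

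Thbs1 had the largest difference for diet in EKO, 0.79 ± 0.42 (95% interval -0.10 to 1.68, adjusted p = 0.946). Several of these values rest on EKO normal replicate 4. Without it Thbs1 stood at 1.29 (adjusted p = 0.379), Lox at -0.08, Tnc at -0.05, Sparc at 0.00 and Fn1 at 0.175, none past the threshold.

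The diet effect in EKO minus that in WT was tested directly. It was -1.36 ± 0.33 for Lox (95% interval -2.07 to -0.65, unadjusted p = 0.00104, adjusted p = 0.0924), -0.89 ± 0.25 for Tnc (adjusted p = 0.147), -0.67 ± 0.25 for Postn (0.312) and -0.35 ± 0.15 for Sparc (0.410). Those 4 had an unadjusted p under 0.05, and 0 of 9 passed in limma, where 0.482% of all genes (96) did. Lox passed without WT Western replicate 1 (-1.48, adjusted p = 0.0410) and without EKO normal replicate 2 (-1.53, adjusted p = 0.0359). For Thbs1 the difference ran the other way, 1.08 ± 0.64 (-0.28 to 2.44, adjusted p = 0.601). The remaining 4 genes lay between -0.29 ± 0.32 (Fn1) and 0.16 ± 0.12 (Loxl3).

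**Figure D3:**
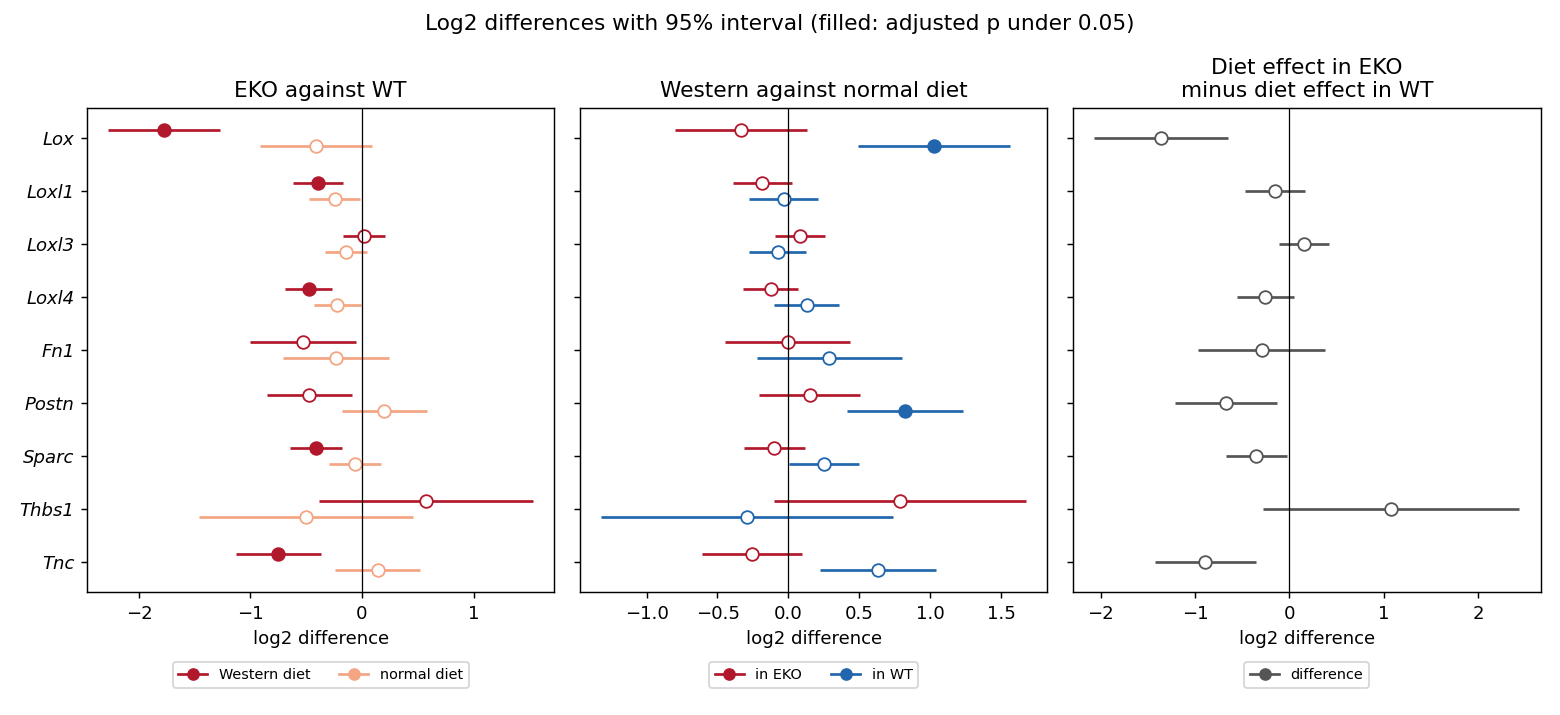
Log2 differences for the 9 genes (rows) with 95% intervals as bars, filled where the adjusted p was under 0.05: EKO against WT on each diet (left), Western against normal diet in each genotype (middle), and the diet effect in EKO minus that in WT (right). Lox lies at -1.77 between genotypes on the Western diet and at 1.03 for diet in WT, and no gene is filled in EKO for diet or on the right.

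Counts in the lists from here on can be set against all 19937 genes. Between genotypes on the Western diet 326 of these passed as higher and 808 (4.05%) as lower. For diet in WT 636 (3.19%) passed as higher and 458 as lower. Part of the collagen assembly genes was lower in Western-fed EKO than in Western-fed WT pads. Among 15 genes of collagen processing and lysine modification 5 fell and 0 rose, with a list median of -0.44. They were Pcolce2 and Pcolce, which enhance the cleavage of procollagen (-1.55 ± 0.28, adjusted p = 0.00507, and -0.72 ± 0.15), the collagen chaperone Serpinh1 (-0.77 ± 0.19), the collagen galactosyltransferase Colgalt1 (-0.57 ± 0.16) and the lysyl hydroxylase Plod1 (-0.55 ± 0.12). Among 12 genes for crosslinking substrates and elastic fibres 4 fell and 0 rose, all of them fibrillar collagens, with a median of -0.23: Col1a1 (-0.62 ± 0.10, adjusted p = 0.00278), Col3a1 (-0.63 ± 0.17), Col5a2 (-0.59 ± 0.13) and Col5a3 (-0.35 ± 0.09). Apart from Pcolce2, Col1a1 and Col5a2 these genes were named after their values were seen. With single arrays left out, the first count was 1 and the second 1 without WT Western replicate 3, 2 and 1 without WT Western replicate 2, 3 and 2 without EKO Western replicate 1 or 4, 4 and 2 without EKO Western replicate 2, and 8 and 5 without WT Western replicate 1.

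For diet in WT the same lists moved little. In collagen processing 1 gene passed, Pcolce2 (1.44 ± 0.30, adjusted p = 0.0113), and the list median was 0.16; the count was 0 without WT normal 2 or WT Western 3 and 3 without WT Western 1. Of the crosslinking substrates none passed in limma, Col1a1 being at 0.34 ± 0.11 (adjusted p = 0.0860), with a median of 0.08. In EKO for diet, and between genotypes on normal diet, 0 genes of any of the 5 lists passed.

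Other matricellular genes did not share the direction of the set. Of 21 measured, 1 rose and 1 fell in EKO against WT on the Western diet, with a median of 0.02. Over all genes 4.05% passed as lower there, and the median was 0.03. Smoc1, a relative of Sparc, rose (0.58 ± 0.10, adjusted p = 0.00424), and the follistatin-like Fstl1 fell (-0.68 ± 0.17, adjusted p = 0.0331; named after its value was seen, with 0 lower genes without WT Western 2 or 3 or EKO Western 2). For diet in WT 2 fell, Smoc1 (-0.79 ± 0.11, adjusted p = 0.000843) and the testican gene Spock2 (-0.65 ± 0.14, adjusted p = 0.0123), and 0 rose; 1 fell without WT normal 3 or WT Western 3. Sparc lay at -0.41 between genotypes on the Western diet and at 0.25 for diet in WT, where it did not pass (adjusted p = 0.279). Smoc1 (0.58 and -0.79) and Spock2 (0.445, adjusted p = 0.0573, and -0.65) lay on the opposite side of 0 in both comparisons. Fstl1 lay on the side of Sparc in both, at -0.68 and 0.42, the latter not passing (adjusted p = 0.255).

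Among 15 receptors of matricellular proteins, 0 passed in limma between genotypes on the Western diet (median -0.37), and 4 fell without WT Western replicate 1. Itga4, an integrin subunit that binds fibronectin, rose with diet in WT (1.03 ± 0.27, adjusted p = 0.0352), a list count of 1 that was 0 without any WT array but Western replicate 1, and 2 without that array. Of 9 regulators 2 fell in EKO against WT on the Western diet, Hif1a, the oxygen-regulated transcription factor subunit (-0.88 ± 0.17, adjusted p = 0.00868), and the growth factor Tgfb1 (-0.76 ± 0.16, adjusted p = 0.0137; named after its value was seen). The count was 1 without WT Western replicate 2, 0 without replicate 3 and 3 without replicate 1. For diet in WT Hif1a rose (0.79 ± 0.18, adjusted p = 0.0210) and Tgfb3 fell (-0.74 ± 0.17, adjusted p = 0.0194). No regulator passed for diet in WT without WT normal 2 or 3 or WT Western 2; 1 fell and 0 rose without WT Western 3, and 2 rose and 0 fell without WT Western 1.

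**Figure D4:**
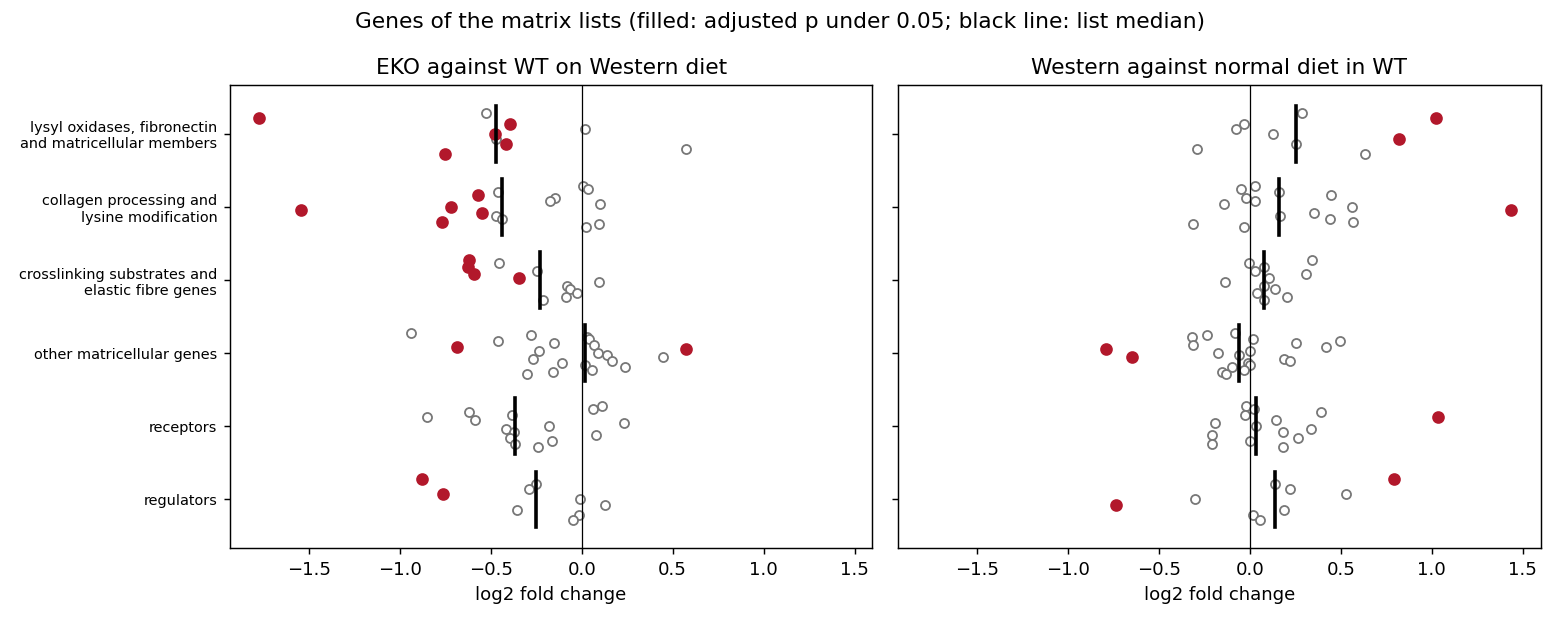
Log2 fold changes of the 9 genes and of the 5 lists of related matrix genes (rows, a point per gene, filled where the adjusted p was under 0.05, black line for the list median), in EKO against WT on the Western diet (left) and Western against normal diet in WT (right). On the left the median of the 9 genes is -0.47, of collagen processing -0.44 and of the other matricellular genes 0.02.

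Macrophage and dividing cell markers moved in the direction of the genes that passed, and mesothelial markers moved in the opposite direction. In EKO against WT on the Western diet 7 of 10 macrophage markers fell and 0 rose, with a list median of -0.97. The mean level of the list was 9.70 to 10.14 in EKO on Western diet and 9.30 to 10.30 in EKO on normal diet, against 10.60 to 11.11 in WT on Western diet and 9.63 to 9.92 in WT on normal diet. Itgax, the CD11c integrin, had -2.03 ± 0.16 (adjusted p = 8.06e-06). All 5 markers of dividing cells also fell, and their mean was 7.21 to 7.58 in EKO and 7.90 to 8.84 in WT on Western diet. For diet in WT, 5 of 10 macrophage and 5 of 5 dividing cell markers rose, and 7 of 9 mesothelial markers fell. Of 5 smooth muscle markers 1 fell for diet in WT (list median -0.53). Between genotypes on the Western diet 0 of them passed (median 0.25). Of 5 endothelial markers 0 passed in either comparison, with medians of -0.20 for diet in WT and 0.25 between genotypes. In EKO against WT on the Western diet 2 of 9 mesothelial markers rose and 0 fell, with a list median of 0.55 and means of 9.46 to 9.74 in EKO against 8.95 to 9.13 in WT; the count was 0 without WT Western 2 or 3 and 1 without EKO Western 1 or 4. With single arrays left out, the count of 7 macrophage markers was 1 without WT Western 3, 2 without WT Western 2 and 3 or 4 without EKO Western 1, 3 or 4, while 4 or 5 of the dividing cell markers fell in every such fit.

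Stromal progenitor and fibroblast markers, from cells that make much of the matrix, moved in part. In EKO against WT on the Western diet 2 of 9 fell, the collagen-binding proteoglycan gene Lum (-1.54 ± 0.26, adjusted p = 0.00332) and the surface protease gene Fap (-0.93 ± 0.14, adjusted p = 0.00198), with a list median of -0.08 and means of 10.24 to 10.48 in EKO and 10.56 to 10.83 in WT. For diet in WT the same 2 rose (1.13 ± 0.28 and 0.56 ± 0.15) while the list median was -0.16, and 0 rose without WT normal 1 or 2 or WT Western 2 or 3. Of 9 adipocyte genes 3 rose and 0 fell in EKO against WT on the Western diet, led by Slc2a4 (0.58 ± 0.12) and Adipoq (0.46 ± 0.085), and 1 rose without WT Western 3. With the Western diet in WT, 3 of the 9 adipocyte genes fell and 0 rose, Slc2a4 (-0.60 ± 0.13) and Adipoq (-0.45 ± 0.09) among them; the count was 1 without WT normal 2 or 3 and 0 without WT Western 3. No macrophage, stromal or platelet marker was at background in any group, and Bub1, a marker of dividing cells, was at background outside Western-fed WT. The part of these cells in the differences of the 9 genes was not tested.

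Platelet markers are given beside Thbs1. Their mean was 9.05 to 9.29 in EKO on Western diet, 8.70 to 9.11 in EKO on normal diet, 8.78 to 8.94 in WT on Western diet and 8.92 to 9.02 in WT on normal diet. In EKO against WT on the Western diet 1 of 4 rose, the chemokine gene Ppbp (0.89 ± 0.19, adjusted p = 0.0148, named after its value was seen), and 0 did without WT Western 3. The list median was 0.24. The rest of the list, also named after the values were seen, did not pass and was split in direction. Pf4 lay below 0 (-0.37 ± 0.22, adjusted p = 0.402), and Gp9 (0.30 ± 0.09, adjusted p = 0.059) and Itga2b (0.18 ± 0.07, adjusted p = 0.187) lay above it. Their part in the Thbs1 values was not tested.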

How the data were processed

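Total RNA of the fat pads was hybridised to Affymetrix whole-transcript arrays. The authors deposited log2 values for each probe set, computed with RMA as the submitters' processing notes say. The sources used here name neither its settings nor a genome build for the array. RMA normalizes probe intensities between arrays, which can take out a shift common to most genes; whether all 14 arrays went through it together is not stated, and array medians of the deposited values ran from 7.92 to 8.10. No value was rescaled or filtered. Of 34760 rows, 21640 carry 1 gene symbol in the platform annotation, 1321 several and 11799 none; 21553 matched RefSeq's gene table by Entrez ID, with 0 symbols changed. The probe set with the highest mean was kept, which left 19937 genes.

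A linear model with a mean for every group was fitted to the 14 arrays with limma 3.58.1 (R 4.3.3), which leaves 10 residual degrees of freedom, and the comparisons are its contrasts after eBayes, two-sided, with Benjamini-Hochberg adjustment over all genes. The method was tested on simulated data with independent noise for each gene, a setting without array effects or an outlying array. Within groups, arrays correlated at 0.976 to 0.995, and the number of arrays limits the precision. The genes, lists and tests were chosen with earlier results of these data known. All 9 measured genes are named; from each list at most 4 genes are named by their change for diet in WT, and others are marked as named after their values were seen. Alternatives were other scalings, priors, weights, filters, probe set means, blocks for replicate number and array background, and leaving out each array. Some listed genes without a probe set of their own (Adamts2, Fbn1, Efemp2, Spp1, Cfd, Ly6a, Gp1bb and Crisp1) were not analysed here. Figures were drawn with matplotlib 3.10.9.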

Additional observations from a re-analysis of the deposited data

How the results depend on the processing

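Over 26 alternatives Lox stayed lower in EKO than in WT on the Western diet, from -1.93 to -1.67 on the log2 scale with adjusted p from 7.79e-07 to 0.00774. Of the 9 genes, 5 passed in that comparison. That count was 3 without the dimmest 50% of genes, which removes Loxl4 and Tnc, 2 on arrays of lower background, 7 with array weights (Fn1 and Postn added), and 1 to 6 with an array left out. Loxl1 also lost its call with quantile normalization, with the trend and robust prior and with the compared groups only. For diet in WT 2 passed, and 5 did with array weights. With quantile normalization, the replicate block or the compared groups only 3 did, Tnc being added each time. With an array left out 0 to 3 did. For the difference of the diet effects 0 passed; 1 did with quantile normalization, 1 with the replicate block, 1 with the background block (Lox each time), 3 with array weights (Lox, Postn and Tnc), and 0 to 1 with an array left out. For diet in EKO and for genotype on normal diet 0 passed under every alternative run. No called difference changed sign. For genotype on Western diet the count over all genes rose from 1134 to 6789 with array weights. It fell to 430 and 316 without WT Western 2 and 3, the fits that left 1 of the 9. The causes were not tested.

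Whether replicate numbers pair the arrays cannot be told here, as only same-numbered arrays were correlated, without differently numbered ones beside them. Deviations of same-numbered arrays correlated at 0.009 to 0.458 between diets in WT and -0.593 to 0.452 between diets in EKO. Between genotypes they correlated at -0.109 to 0.207 on normal diet and -0.114 to 0.644 on Western diet. With the replicate block 3 genes passed for diet in WT (Lox, Postn and Tnc) and 6 for genotype on Western diet, Fn1 being added. Over all genes that block raised the count for genotype on Western diet from 1134 to 1672.

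Over all genes the count was 1134 for genotype on Western diet (316 to 6789 over the alternatives), 1094 for diet in WT (415 to 5223), 96 for the difference of the diet effects (37 to 2338), 0 for diet in EKO (0 to 8) and 1 for genotype on normal diet (1 to 3); array weights gave the highest of the first 4. The dimmer Loxl4 probe set lay near array background, which limits what it can show.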
